A study of Homo sapiens with 4 samples.

Results

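RNA-Seq counts of 43 genes of fatty acid metabolism were compared between LNCaP95 and LN95(KO) prostate cancer cells. The genes were taken by symbol from a fixed list of synthesis, elongation, desaturation, activation and oxidation enzymes with 3 uptake and storage proteins, and each was matched to its Ensembl identifier among the 60880 genes of the counts. All 43 had an identifier, and 37 passed the filter on low counts and were tested. LNCaP95 is a subline of the established prostate cancer line LNCaP that grows without androgen. LN95(KO) was derived from it with CRISPR vectors against UGT2B17, an enzyme that glucuronidates androgens, and the labels give the genotypes as WT and UGT2B17 KO. Each group had 2 libraries, replicates 1 and 2 of LNCaP95 and replicates 3 and 4 of LN95(KO). Both groups grew in RPMI1640 with charcoal-stripped serum, which is low in steroids, and neither was treated. How many knockout clones the line holds is not stated in the sources used here, and nothing in the labels states that replicates were separate cultures, so the p-values measure the spread between these libraries, which may be technical.

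Cells build fatty acids in the cytosol. Citrate and acetate supply acetyl-CoA, a carboxylase turns it into malonyl-CoA, and fatty acid synthase joins these units into palmitate. Elongases and desaturases of the endoplasmic reticulum then lengthen the chain and add double bonds. A fatty acid has to be joined to coenzyme A by an acyl-CoA synthetase before it can be stored, built into membranes or burned. Burning takes place in mitochondria after entry through the carnitine shuttle, and peroxisomes handle very long and branched chains. Prostate tumours are known for active lipid synthesis, and several of its enzymes are known targets of androgen receptor and of the sterol regulatory element binding proteins.

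The libraries held 17330338 to 18813193 gene reads, and 3 counts, the most that a count of 0 allows, corresponded to 0.163 to 0.169 CPM, a unit that scales counts to the size of the library. UGT2B17 had 2788 and 2748 reads in the LNCaP95 libraries, against 21 and 20 reads in LN95(KO), for a log2 fold change of -7.04. All 9 prostate luminal markers reported here were detected, with a summed level of 3498 to 3522 CPM in LNCaP95 and 3393 to 3551 CPM in LN95(KO). Among them KLK3 and TMPRSS2, genes known to respond to androgen, were called higher in LN95(KO), with log2 fold changes of 3.62 and 2.96. Summed markers of basal cells, endothelium and hepatocytes were low in both groups and higher in LN95(KO). The basal sum was 0.163 to 0.218 CPM against 1.13 to 1.53 CPM in LN95(KO), there mostly KRT14. TP63, also a basal marker, had 2 and 0 reads in the LNCaP95 libraries and 0 reads in both LN95(KO) libraries. The endothelial sum (2 of 3 markers matched) was 0.433 to 0.437 CPM against 2.77 to 3.18 CPM, all from VWF. The hepatocyte sum was 0.0542 to 0.218 CPM against 5.21 to 6.44 CPM, in LN95(KO) mostly TTR. Leukocyte markers summed to 0 to 0.0542 CPM against 0.11 to 0.113 CPM, in every library below the level that a count of 0 allows. Fibroblast markers, mostly COL1A1, summed to 30.2 to 31.2 CPM against 32.6 to 35.7 CPM, and adipocyte markers to 1.04 to 1.08 CPM against 0.548 to 0.678 CPM with ADIPOQ and LEP at 0 reads. LUM, also a fibroblast marker, moved against that sum, with 24 and 19 reads in the LNCaP95 libraries and 0 reads in both LN95(KO) libraries, and was called lower. The part of these markers in the changes of fatty acid genes was not tested.

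Of the 37 genes tested, 9 were called, which means an adjusted p under 0.05 and a fold change over 2. The 9 are 24.3% of those tested, beside 18.0% of all 15626 genes tested. ACSS2, ELOVL5, SCD, FADS1, FADS2 and ACSL3 were called higher in LN95(KO), and SCD5, ACSL6 and AMACR were called lower. At an adjusted p under 0.05 without regard to fold, 23 rose and 10 fell, or 89.2% of the list beside 59.8% of all genes tested. ACSL5, HADHB, ACAA2 and DECR1 did not pass. In 35 of the 37 the CPM of one group lay wholly above that of the other, as in 79.8% of all genes tested. The median log2 fold change of the 37 was 0.29, and that of all genes tested was -0.01. A value from a whole culture does not tell fewer cells of a kind from less RNA per cell.

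**Figure D1:**
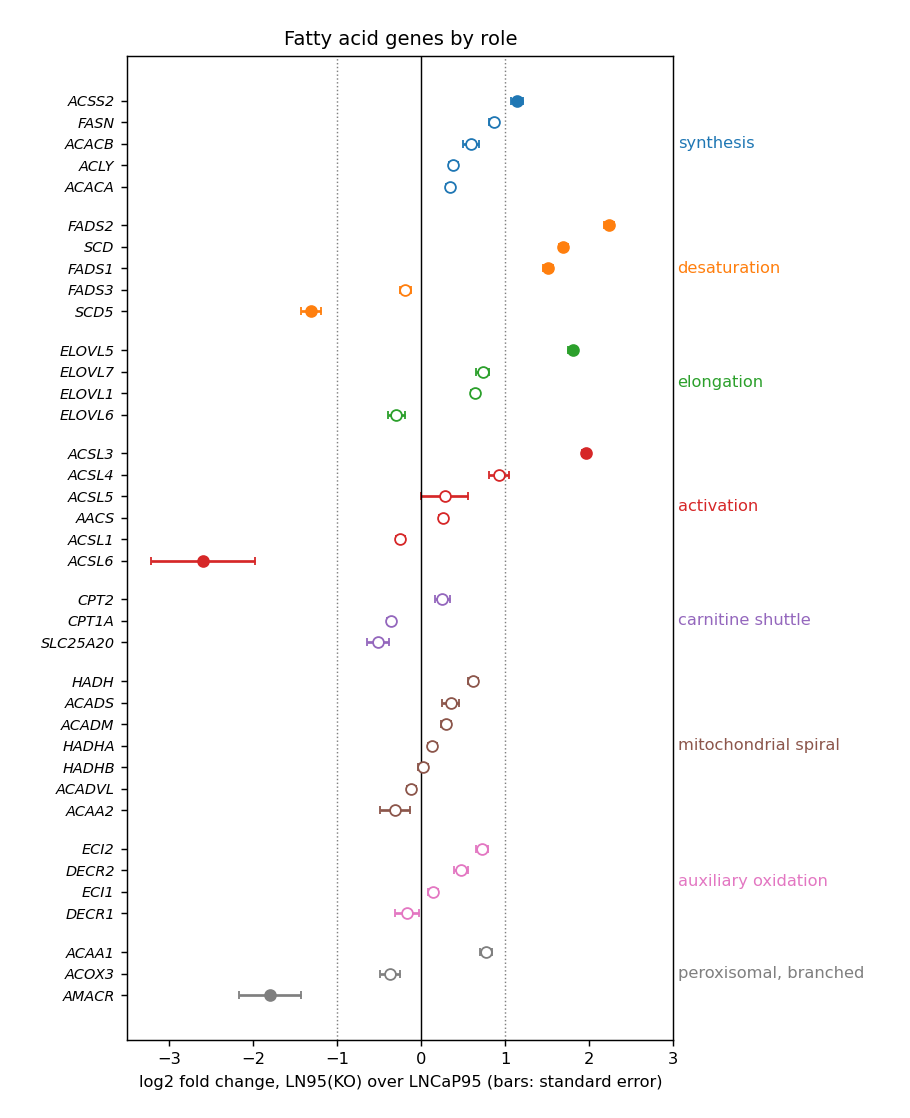
Log2 fold change of LN95(KO) over LNCaP95 for the 37 tested genes, grouped by role, with bars for the standard error and filled points for called genes. The called rises lie in synthesis, desaturation, elongation and activation. Called falls are SCD5 in desaturation, at -1.31, ACSL6 in activation, at -2.60, and AMACR, at -1.80. AMACR is the 1 oxidation gene beyond a 2-fold change (dotted lines).

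All 5 synthesis enzymes rose, beside 29.8% of all genes tested. Of the 5, 1 was called with a change over 2-fold, or 20% beside 18.0% of all genes tested. FASN (ENSG00000169710.8_3, minus strand, chr17:80036214-80056170 of GRCh37), the synthase that makes palmitate, had 10229 and 10069 reads in the LNCaP95 libraries, against 17364 and 18779 reads in LN95(KO). Both LN95(KO) libraries lay above both LNCaP95 libraries, at 1005 ± 33.9 CPM against 552 ± 3.16 CPM (SD, n = 2 libraries each). The log2 fold change of FASN was 0.86 (SE 0.05, adjusted p 3.93e-11 by the quasi-likelihood test of edgeR and the Benjamini-Hochberg method), a 1.82-fold rise that fell short of the fold criterion. ACSS2 (ENSG00000131069.19_4, plus strand, chr20:33459949-33515765), which makes acetyl-CoA from acetate, had 762 and 855 reads in the LNCaP95 libraries, against 1639 and 1843 reads in LN95(KO). Its groups did not overlap, and it rose 2.20-fold, by 1.14 on the log2 scale (SE 0.07, edgeR adjusted p 2.15e-10). ACLY, the enzyme that splits cytosolic citrate into acetyl-CoA, had 4208 and 4287 reads in the LNCaP95 libraries, against 5133 and 5659 reads in LN95(KO) (log2 fold change 0.38, SE 0.05, edgeR adjusted p 4.57e-06). ACACA, the main cytosolic acetyl-CoA carboxylase, had 3668 and 3842 counts against 4561 and 4717 (log2 fold change 0.34, SE 0.05, edgeR adjusted p 1.27e-05). ACACB, the carboxylase at the mitochondrial surface whose malonyl-CoA restrains the carnitine shuttle, rose by 0.59 on the log2 scale from a lower level. Per kilobase of transcript, ACACB made up 7.34% ± 0.468 of the summed carboxylase level in LNCaP95 and 8.63% ± 0.623 in LN95(KO), so that ACACA supplied over 90% in both groups.

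Desaturation held the largest rise of the list, that of FADS2. FADS2 (ENSG00000134824.13_3, plus strand, chr11:61560452-61634826), which introduces the first of the extra double bonds on the way to long polyunsaturated fatty acids, had 10139 and 10339 counts in LNCaP95. It had 42740 and 51065 counts in LN95(KO), so the groups were far apart and the LN95(KO) libraries also differed from each other more than the LNCaP95 libraries did. The level of FADS2 was 557 ± 10.7 CPM in LNCaP95 and 2606 ± 271 CPM in LN95(KO). FADS2 rose 4.68-fold (log2 fold change 2.23, SE 0.06, edgeR adjusted p 6.19e-15), more than 97.0% of all genes tested. Among all genes ranked by counts, FADS2 stood at positions 155 and 145 in the LNCaP95 libraries and at 18 and 15 in the LN95(KO) libraries. It took 0.0539% and 0.0552% of gene reads in LNCaP95 and 0.247% and 0.284% in LN95(KO).

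SCD (ENSG00000099194.5_2, plus strand, chr10:102106990-102124583), the desaturase that makes oleate from stearate, had 4586 and 4673 reads in the LNCaP95 libraries, against 14403 and 14738 reads in LN95(KO). The groups did not overlap, at 252 ± 4.71 CPM and 811 ± 4.35 CPM. SCD rose 3.22-fold (log2 fold change 1.69, SE 0.05, edgeR adjusted p 5.33e-15). FADS1 (ENSG00000149485.18_3, minus strand, chr11:61567099-61596790), which acts after FADS2 in the polyunsaturated route and lies beside it on the opposite strand, had 2130 and 2134 reads in the LNCaP95 libraries, against 5506 and 6371 reads in LN95(KO). Its log2 fold change was 1.51 (SE 0.06, edgeR adjusted p 4.08e-13), with both LN95(KO) libraries above both LNCaP95 libraries. Exons of FADS2 cover 5.57% of the exon bases of FADS1, and counting did not use strand, so reads in that stretch could not be assigned. FADS3, the neighbouring paralog that acts on sphingoid bases, had 1081 and 1054 counts against 945 and 882 (log2 fold change -0.19, SE 0.07, edgeR adjusted p 0.0199), which lost its adjusted p under 5 alternatives. SCD5 (ENSG00000145284.11_2, minus strand, chr4:83550692-83719949), the less abundant stearoyl-CoA desaturase, went the opposite way to SCD. It had 395 and 332 reads in the LNCaP95 libraries, against 142 and 145 reads in LN95(KO) (log2 fold change -1.31, SE 0.12, edgeR adjusted p 3.65e-08).

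Of the 4 elongation genes tested, 3 rose and 1 fell, beside 29.8% and 30.1% of all genes tested. The 1 called gene was 25% of the 4, beside 18.0% of all genes tested. ELOVL5 (ENSG00000012660.13_3, minus strand, chr6:53132196-53213977), which lengthens polyunsaturated chains and so works between the steps of FADS2 and FADS1, had 2783 and 2648 reads in the LNCaP95 libraries, against 9317 and 9181 reads in LN95(KO). The groups did not overlap, and the level went from 148 ± 4.39 CPM to 515 ± 16.5 CPM. ELOVL5 rose 3.49-fold (log2 fold change 1.80, SE 0.05, edgeR adjusted p 5.7e-15). ELOVL1 and ELOVL7, which act on saturated and very long chains, rose by 0.64 and 0.73 on the log2 scale without reaching a 2-fold change. ELOVL6, which takes palmitate to stearate, had 653 and 626 reads in the LNCaP95 libraries, against 437 and 576 reads in LN95(KO) (log2 fold change -0.30, SE 0.10, edgeR adjusted p 0.0108). With DESeq2 the adjusted p of ELOVL6 was 0.0537. Without LN95(KO) replicate 3 the change of ELOVL6 was -0.14 with an adjusted p of 0.174 (edgeR). ELOVL2 had 1 count in each LN95(KO) library and 0 in LNCaP95, ELOVL4 had 0 or 1 counts per library, and neither was tested.

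**Figure D2:**
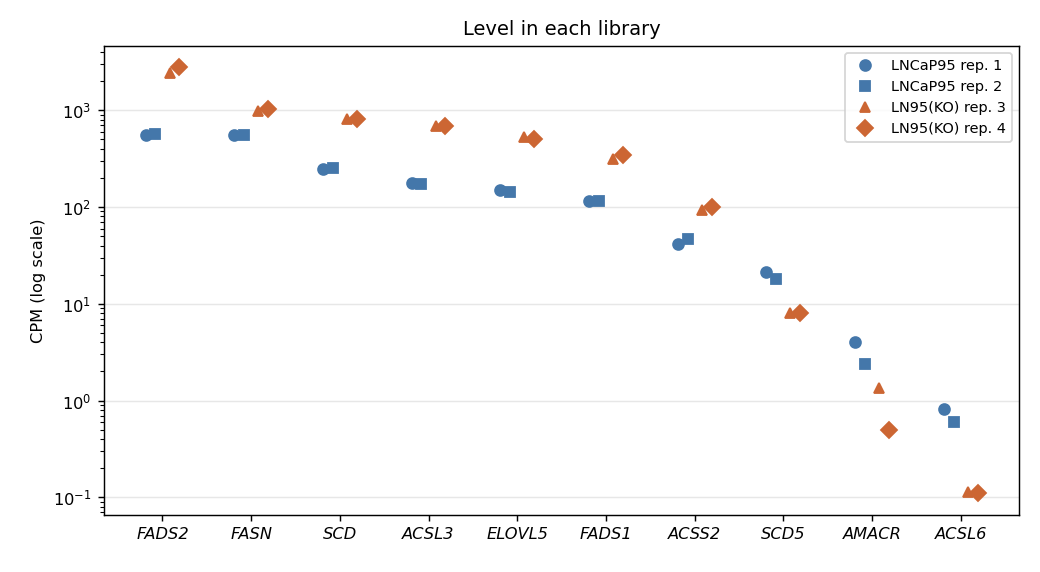
Level of the 9 called genes and of FASN in each of the 4 libraries, in CPM on a log scale. LN95(KO) libraries lie above LNCaP95 libraries for FADS2, FASN, SCD, ACSL3, ELOVL5, FADS1 and ACSS2, and below them for SCD5, AMACR and ACSL6, where ACSL6 is near 0.1 CPM in LN95(KO).

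Activation enzymes also split. ACSL3 (ENSG00000123983.13_2, plus strand, chr2:223725660-223809357), the long-chain acyl-CoA synthetase found at the endoplasmic reticulum and on forming lipid droplets, had 3287 and 3171 reads in the LNCaP95 libraries, against 12093 and 12430 reads in LN95(KO). The replicates of each group were close, at 176 ± 3.51 CPM and 682 ± 1.49 CPM, and the groups did not overlap. ACSL3 rose 3.88-fold (log2 fold change 1.96, SE 0.05, edgeR adjusted p 8.81e-16). ACSL1, the most abundant member of the family in LNCaP95, had 10103 and 10190 counts against 8530 and 8126 in LN95(KO). It fell by 0.25 on the log2 scale (edgeR adjusted p 2.84e-04), a change of 1.19-fold. ACSL4, which prefers arachidonate, rose by 0.92 and crossed a 2-fold change, at 1.01, when LNCaP95 replicate 2 was left out. ACSL5 had 23 to 29 counts per library, and no difference was detectable at this depth (log2 fold change 0.28, SE 0.28, edgeR adjusted p 0.411). ACSL6, a form known mainly from brain, had 15 and 11 counts in LNCaP95 and 2 counts in each LN95(KO) library. The ratio of pooled scaled counts of ACSL6, LNCaP95 over LN95(KO), was 6.35 (95% counting interval 2.2 to 25.1), with an adjusted p of 0.00156 (edgeR). Of the exon bases of ACSL6, 12.6% also lie in another gene. AACS, which activates acetoacetate in the cytosol, rose by 0.26.

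Promoters of the listed genes were searched for short motifs, and the windows of 4 of the 6 called rises are printed. RefSeq promoters on GRCh38.p14 were found for 37 of the 43 genes, and the 250 bases before each start were searched on both strands for the letters CCAAT (the CCAAT box), CACGTG (an E-box), TCANNCCAC (the core of a sterol regulatory element, N standing for any base) and AGAACA (an arm of an androgen response element). The 4 called-higher genes with a CCAAT match are printed 5′ to 3′ on the strand of the gene, with matches in capitals, which read ATTGG where the match is on the opposite strand. Their windows are chr10:100346983-100347232 (plus strand) for SCD, chr6:53348951-53349200 (minus strand) for ELOVL5, chr2:222860786-222861035 (plus strand) for ACSL3 and chr20:34874739-34874988 (plus strand) for ACSS2.
SCD: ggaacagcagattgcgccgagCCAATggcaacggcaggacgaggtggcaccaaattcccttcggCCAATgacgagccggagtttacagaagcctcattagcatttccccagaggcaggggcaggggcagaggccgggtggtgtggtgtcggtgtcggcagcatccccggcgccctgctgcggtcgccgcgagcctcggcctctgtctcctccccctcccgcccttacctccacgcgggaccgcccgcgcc
ELOVL5: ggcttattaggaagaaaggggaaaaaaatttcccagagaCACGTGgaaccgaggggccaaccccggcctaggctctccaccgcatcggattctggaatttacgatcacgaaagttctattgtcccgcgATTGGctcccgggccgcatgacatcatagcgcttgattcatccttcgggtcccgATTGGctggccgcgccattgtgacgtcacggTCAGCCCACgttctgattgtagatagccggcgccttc
ACSL3: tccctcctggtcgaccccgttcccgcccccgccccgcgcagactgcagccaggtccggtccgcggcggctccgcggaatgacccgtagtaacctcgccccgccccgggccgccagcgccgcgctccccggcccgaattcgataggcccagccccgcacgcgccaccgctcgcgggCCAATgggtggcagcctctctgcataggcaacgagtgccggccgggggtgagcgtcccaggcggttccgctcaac
ACSS2: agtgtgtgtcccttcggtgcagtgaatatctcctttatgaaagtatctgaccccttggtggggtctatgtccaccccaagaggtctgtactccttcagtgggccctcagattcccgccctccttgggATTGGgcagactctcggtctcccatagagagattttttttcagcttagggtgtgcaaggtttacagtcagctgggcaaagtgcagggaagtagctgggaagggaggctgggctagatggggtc
SCD had CCAAT at 229 and 186 bases before its start. ELOVL5 had it at 122 and 68 bases on the opposite strand, with CACGTG at 211 bases and TCANNCCAC at 37 bases, the only called gene with those. ACSL3 had CCAAT at 75 bases and ACSS2 at 123 bases. FADS1 and FADS2 had 0 matches to the 4 motifs in these windows. Only the first promoter entry of each gene was searched, so any other starts of these genes are not covered. No match overlapped another in the printed windows. CCAAT was found in 4 of the 6 promoters of called-higher genes, in 2 of the 3 of called-lower genes (SCD5 and AMACR), in 11 of the 37 (29.7%), and in 33.0% of 27305 promoters of the same length. CACGTG was found in 3 of 37 beside 6.49% of all promoters, TCANNCCAC in 3 of 37 (ACLY, ACACB and ELOVL5) beside 3.17%, and AGAACA in 0 of 37 beside 12.4%. These matches describe the letters of the windows and not binding.

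The carnitine shuttle, which carries activated fatty acids into mitochondria, had 0 called of 3 tested genes by edgeR and by DESeq2. Of all genes tested, 18.0% were called by edgeR. At an unadjusted p under 0.05, 1 of the 3 was higher and 2 were lower. The same numbers were past the adjusted p at any fold, as were 59.8% of all genes tested. CPT1A (ENSG00000110090.12_2, minus strand, chr11:68522088-68611878), the outer membrane transferase that controls entry, had 3220 and 3200 reads in the LNCaP95 libraries, against 2453 and 2448 reads in LN95(KO). Both LN95(KO) libraries were lower, at 136 ± 3.15 CPM against 175 ± 0.179 CPM (log2 fold change -0.36, SE 0.05, edgeR adjusted p 8.19e-06). SLC25A20, the carnitine carrier of the inner membrane, had 269 and 223 counts against 179 and 156 and fell by 0.52 on the log2 scale (edgeR adjusted p 0.00219). CPT2, the inner membrane transferase, rose by 0.25, with an adjusted p of 0.0235 that reached 0.362 without LNCaP95 replicate 2 (edgeR). CPT1B, the muscle form, had 4 or 5 counts per library and was not tested. Exons of the read-through gene CHKB-CPT1B cover 66.4% of its exon bases, and htseq leaves out reads that fall on both.

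Within the mitochondrial oxidation spiral 0 of 7 genes were called by edgeR and by DESeq2, beside 18.0% of all genes tested by edgeR. At any fold, 4 of the 7 rose and 1 fell, or 71.4% beside 59.8% of all genes tested. The same numbers had an unadjusted p under 0.05 (edgeR). HADHA (ENSG00000084754.11_4, minus strand, chr2:26413504-26467540), the alpha subunit of the trifunctional protein, had 4408 and 4290 reads in the LNCaP95 libraries, against 4556 and 4747 reads in LN95(KO). The log2 fold change of HADHA was 0.13 (SE 0.05, edgeR adjusted p 0.0244), and its adjusted p reached 0.211 without LNCaP95 replicate 2. HADHB, the beta subunit encoded beside it, did not pass the test, its groups overlapped (1654 to 1783 reads, against 1690 to 1709 reads in LN95(KO)), and its log2 fold change of 0.02 changed sign under upper-quartile factors. HADH, the short-chain hydroxyacyl-CoA dehydrogenase, showed the largest rise of the 7, from 1469 and 1380 counts to 1975 and 2278 (log2 fold change 0.61, SE 0.06, edgeR adjusted p 1.83e-07). The acyl-CoA dehydrogenases ACADM and ACADS, for medium and short chains, rose by 0.29 and 0.35. ACADVL, the very-long-chain dehydrogenase and the most abundant oxidation gene per kilobase in both groups, had 8135 and 7954 counts against 7410 and 7082. Its log2 fold change of -0.12 had an adjusted p of 0.0484, and 0.301 under library totals (edgeR). ACAA2, the thiolase of the last step, had overlapping groups (113 to 166 and 98 to 122 counts) and did not pass the test, except without LNCaP95 replicate 2 (-0.56, adjusted p 0.0121, edgeR).

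Unsaturated, very long and branched chains need further enzymes, and these held both directions. ECI2, an isomerase that moves double bonds into place, had 695 and 682 reads in the LNCaP95 libraries, against 1049 and 1163 reads in LN95(KO) (log2 fold change 0.72, SE 0.07, edgeR adjusted p 6.5e-08). Its mitochondrial relative ECI1 rose by 0.14, with an adjusted p of 0.0383 that was above 0.05 under 6 alternatives (edgeR). The dienoyl-CoA reductases differed, since peroxisomal DECR2 rose by 0.47 while mitochondrial DECR1 (146 and 147 counts against 134 and 120) did not pass the test. ACAA1, the peroxisomal thiolase, had 770 and 676 counts against 1239 and 1162 (log2 fold change 0.77, SE 0.07, edgeR adjusted p 9.45e-08). Exons of other genes cover 29.8% of the exon bases of ECI2, 21.2% of ACAA1 and 14.3% of DECR2. ACOX3, a peroxisomal oxidase of branched chains, fell by 0.37 (edgeR adjusted p 0.0123).

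AMACR (ENSG00000242110.7_4, minus strand, chr5:33986270-34008209), the racemase that prepares branched-chain fatty acids for oxidation and a marker of prostate cancer in pathology, was the called oxidation gene. It had 74 and 44 reads in the LNCaP95 libraries, against 24 and 9 reads in LN95(KO), so the groups did not overlap but the libraries within each differed. The ratio of pooled scaled counts, LNCaP95 over LN95(KO), was 3.5 (95% counting interval 2.36 to 5.31), and the log2 fold change was -1.80 (SE 0.37, edgeR adjusted p 9.26e-04). Leaving out LN95(KO) replicate 3 moved the fitted change of AMACR to -2.68, and leaving out replicate 4 of that group moved it to -1.23. Exons of the read-through gene C1QTNF3-AMACR cover 72.3% of its exon bases, so most reads of AMACR could be dropped as ambiguous. C1QTNF3-AMACR itself had 9 and 5 reads in the LNCaP95 libraries, against 5 and 3 reads in LN95(KO).

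The 3 uptake and storage proteins were below the filter. CD36, a fatty acid receptor at the cell surface, had 1 and 2 reads in LN95(KO) and 0 in LNCaP95. FABP5, a cytosolic carrier, had 0 or 1 counts per library, with 17.3% of its 100-base windows shared with the pseudogene FABP5P7. PLIN2, a coat protein of lipid droplets, had 1 read per LNCaP95 library against 3 and 8 reads in LN95(KO), with LN95(KO) over LNCaP95 at 5.63 (95% counting interval 1.23 to 52.2). No exon base of PLIN2 lay under another gene of the annotation used here, which is later than the one used for counting, and whether a gene of that earlier release took its reads was not tested.

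Synthesis and desaturation were then set against oxidation. Of the 10 synthesis and desaturation genes, all tested, 4 were called higher and 1 lower, and without the fold criterion 8 rose and 2 fell. Of the 18 oxidation genes, 17 were tested, 0 were called higher and 1 was called lower by edgeR and likewise by DESeq2. Without the fold criterion 9 of them rose, 5 fell and 3 did not pass, and the same numbers had an unadjusted p under 0.05. For all genes tested, 8.86% were called higher and 9.13% lower, and 29.8% and 30.1% were past the adjusted p in each direction. The median log2 fold change was 0.73 for synthesis and desaturation, from -1.31 for SCD5 to 2.23 for FADS2, and 0.13 for oxidation, from -1.80 for AMACR to 0.77 for ACAA1, a difference of 0.60. No p is given for that difference, since genes are not replicates. With elongation added to the first list its median was 0.69 over 14 tested genes, and with oxidation limited to mitochondrial import and the spiral its median was 0.07 over 10 tested genes. In that shorter list 0 genes were called by edgeR and 0 by DESeq2, while 5 were higher and 3 lower at an unadjusted p under 0.05 (edgeR).

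Per kilobase of transcript, the levels of the 10 synthesis and desaturation genes summed to 446 and 454 CPM in LNCaP95 and to 1284 and 1426 CPM in LN95(KO), 3.01 times the LNCaP95 mean. Those of the 18 oxidation genes summed to 618 and 594 CPM in LNCaP95 and to 667 and 667 CPM in LN95(KO), 1.10 times. The synthesis and desaturation sum was thus below the oxidation sum in both LNCaP95 libraries, with ratios of 0.722 and 0.764, and above it in both LN95(KO) libraries, with ratios of 1.93 and 2.14. The desaturases alone went from 291 and 296 CPM per kilobase to 1040 and 1169, and FADS2 alone averaged 180 CPM per kilobase in LNCaP95 and 843 in LN95(KO). In a sum without FADS2, added after the data were seen, the other 9 genes stood at 268 and 272 against 503 and 521 CPM per kilobase, 1.90 times the LNCaP95 mean. That sum was below the oxidation sum in all 4 libraries. The ratios were 0.433 and 0.458 for the LNCaP95 libraries and 0.754 and 0.780 for LN95(KO). With the oxidation list unchanged, the crossing thus needed FADS2. No gene was taken out of the oxidation sum, where ACADVL averaged 200 CPM per kilobase in LNCaP95 and 185 in LN95(KO). The sums also depend on which genes are listed. Abundant genes of the other lists below are in neither sum. ECHS1, of oxidation, averaged 135 CPM per kilobase in LNCaP95 and 167 in LN95(KO), and SLC25A1, of synthesis, 61.1 and 99.6. The synthesis enzymes without the desaturases summed to 154 and 158 against 244 and 257 CPM per kilobase. Without length scaling, the synthesis and desaturation genes took 0.199% and 0.202% of gene reads in LNCaP95 and 0.536% and 0.582% in LN95(KO), and the oxidation genes 0.138% and 0.133% against 0.150% and 0.148%.

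**Figure D3:**
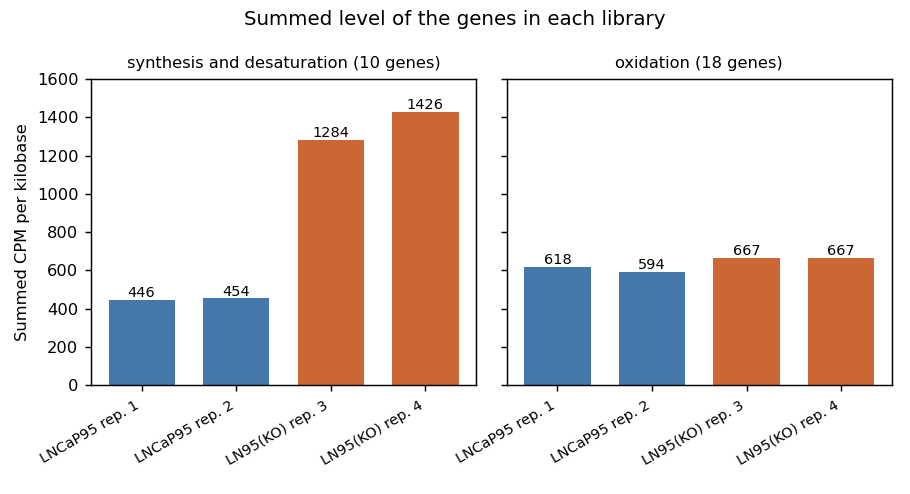
Summed CPM per kilobase of transcript of the 10 synthesis and desaturation genes (left) and the 18 oxidation genes (right), 1 bar per library with its value above it. The left bars go from 446 and 454 in LNCaP95 to 1284 and 1426 in LN95(KO), while the right bars lie between 594 and 667.

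Paralogs moved unequally, and the make-up of 4 enzyme families differed between the groups by more than the spread of their libraries. Of the summed level of long-chain acyl-CoA synthetases per kilobase, ACSL1 gave 81.6% ± 0.41 in LNCaP95 and 49.8% ± 1.38 in LN95(KO) (SD, n = 2 libraries each). ACSL3 gave 17.3% ± 0.457 and 48.8% ± 1.27, so that in LN95(KO) both were about equal, at 125 and 122 CPM per kilobase. Among elongases ELOVL1 led in LNCaP95 with 55.7% ± 0.236 and ELOVL5 led in LN95(KO) with 56.8% ± 1.25. FADS2 made up 75.3% ± 0.428 of the FADS desaturases in LNCaP95 and 89.0% ± 0.629 in LN95(KO), and the share of FADS1 was lower in LN95(KO) although its level rose (11.1% ± 0.0755 and 7.99% ± 0.125). The share of SCD5 among stearoyl-CoA desaturases was 11.9% ± 1.43 and 1.67% ± 0.00242. With 2 libraries against 2, the smallest permutation p is 0.333, so these shares were not tested.

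**Figure D4:**
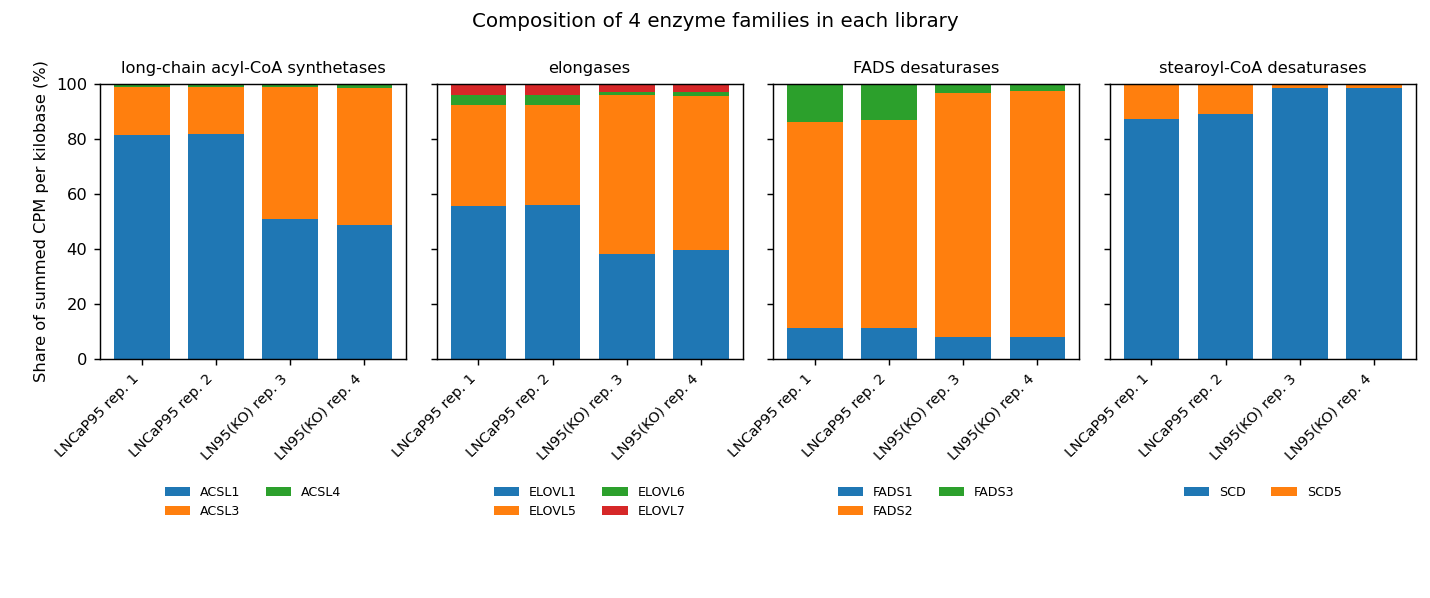
Share of each enzyme in the summed CPM per kilobase of its family, in percent, for 4 families and 4 libraries, with members under 0.5% in both groups not drawn. ACSL3 goes from 17.6% and 17.0% to 47.9% and 49.7%, and ELOVL5 from 36.8% and 36.3% to 57.7% and 56.0%.

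Other genes of fatty acid metabolism were taken from 5 lists written by role. Of 109 such genes 91 were tested, and 13 were called higher and 6 lower, or 20.9% beside 18.0% of all genes tested. Their median log2 fold change was 0.07. At any fold 68.1% of the 91 were past the adjusted p, beside 59.8% of all genes tested. The counts at an unadjusted p given below have no share of all genes beside them. Among 19 tested regulators 2 were called higher and 0 lower by edgeR and by DESeq2, with 9 higher and 6 lower at an unadjusted p under 0.05 and a median of 0.14. SREBF1, the sterol regulatory element binding protein gene tied to fatty acid synthesis, had 3211 and 3173 reads in the LNCaP95 libraries, against 6824 and 7729 reads in LN95(KO) (log2 fold change 1.22, SE 0.05, edgeR adjusted p 2.33e-12). Its relative SREBF2, tied to cholesterol synthesis, rose by 0.19, and INSIG1, which holds both precursors in the endoplasmic reticulum, rose by 0.40. LPIN1, a phosphatidate phosphatase and coregulator, had 911 and 948 counts against 2853 and 2902 (log2 fold change 1.66, SE 0.06, edgeR adjusted p 7.11e-14). PPARA, a receptor that drives oxidation genes, had 537 and 597 reads in the LNCaP95 libraries, against 351 and 299 reads in LN95(KO), and fell by 0.77 (edgeR adjusted p 3.32e-06). PPARG (104 and 101 counts against 114 and 87) did not pass the test.

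Of 14 other synthesis genes tested, 0 were called higher and 1 lower by edgeR and by DESeq2, with 4 higher and 2 lower at an unadjusted p under 0.05 and a median of 0.03. Of 18 activation and transport genes 4 were called higher and 0 lower by edgeR and 3 and 0 by DESeq2, with 7 higher and 5 lower at an unadjusted p under 0.05 and a median of -0.01. ACSM3, a medium-chain synthetase, went from 306 and 302 counts to 854 and 859 (log2 fold change 1.53), and DBI, the acyl-CoA binding protein, from 1469 and 1381 to 2771 and 3040 (1.06). Of 24 other oxidation genes 3 were called higher and 3 lower by edgeR and by DESeq2, with 12 higher and 7 lower at an unadjusted p under 0.05 and a median of 0.10. By edgeR the called genes were 7.14%, 22.2% and 25% of these lists, in the order given. Of all genes tested, 18.0% were called. CROT, a carnitine transferase of peroxisomes, had 163 and 140 reads in the LNCaP95 libraries, against 478 and 550 reads in LN95(KO) (log2 fold change 1.79, SE 0.11, edgeR adjusted p 1.82e-10). HACL1, which shortens branched chains in peroxisomes, rose by 1.22. CRAT, the acetyl-carnitine transferase, went the opposite way, from 1607 and 1601 counts to 558 and 533 (log2 fold change -1.52, SE 0.07, edgeR adjusted p 2.05e-12), and CPT1C, the brain form of carnitine palmitoyltransferase, fell by 1.49. Both directions thus occurred among the carnitine transferases.

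Lipid storage and release genes had 4 called higher and 2 lower of 16 tested, or 37.5% beside 18.0% of all genes tested. DESeq2 called 3 higher and 2 lower, 8 were higher and 6 lower at an unadjusted p under 0.05, and the median was 0.18. LPL, the lipase that frees fatty acids from lipoproteins outside the cell, had 33 and 46 reads in the LNCaP95 libraries, against 3401 and 3270 reads in LN95(KO). The LN95(KO) level of 186 ± 9.17 CPM stood against 2.15 ± 0.512 CPM in LNCaP95, the largest rise among these 91 genes, with a log2 fold change of 6.43 (SE 0.10, edgeR adjusted p 4.04e-18). HILPDA, a lipid droplet protein that restrains fat breakdown, rose from 128 and 113 counts to 285 and 281 (log2 fold change 1.26), and AGPAT2, an acyltransferase of phosphatidate synthesis, fell from 866 and 827 to 415 and 379 (-1.06). The AGPAT2 call was lost when LN95(KO) replicate 4 was left out, where the log2 fold change was -0.97.

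**Figure D5:**
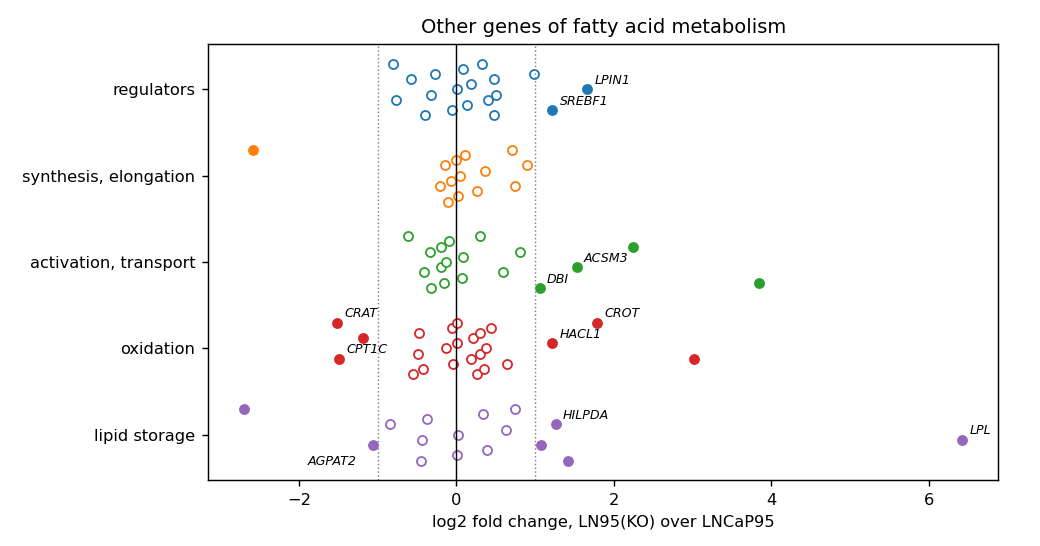
Log2 fold change of LN95(KO) over LNCaP95 for the 91 other genes of fatty acid metabolism tested, in 5 lists, with filled points for called genes and dotted lines at a 2-fold change. LPL lies apart at 6.43, and called genes lie on both sides in the oxidation and storage lists.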

How the data were processed

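RNA-Seq was made from poly(A) RNA, as 2 LNCaP95 and 2 LN95(KO) libraries on the DNBseq platform, and groups were taken from the labels. Each deposited file lists raw counts, 1 whole number for each gene. Alignment by the authors used HISAT2 (version 2.1.0) and hg19, and counting used htseq on GENCODE, without strand per the file names. Such counting drops reads that fall on more than 1 gene. The 5 summary lines of each file were left out of library sizes. Reads that fell on no gene made up 3.81% to 4.06% of entries. A series table with the same counts was not used.

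Symbols were matched to 59859 of 60880 identifiers. Positions, exon overlap and transcript lengths came from GENCODE release 44 on GRCh37, which is later than the release used for counting. Of the 60880 genes, 15626 passed filterByExpr (minimum count 10, minimum total 15). They were tested with the edgeR quasi-likelihood test (version 4.0.16, R 4.3.3, robust, TMM factors, no covariate) and Benjamini-Hochberg adjustment over all 15626. The thresholds, an adjusted p under 0.05 and a fold over 2, are those of the study, which used DESeq2. Fold changes are LN95(KO) over LNCaP95, and "rose" and "fell" are used at an adjusted p under 0.05. CPM values were computed here from the counts on TMM-scaled library sizes. Levels of different genes were compared as CPM per kilobase of the canonical transcript. Replicates were not copies of 1 library, since chi-square over degrees of freedom was 2.31 between the LNCaP95 libraries and 3.31 between the LN95(KO) libraries. Intervals and the limit of 3 counts cover counting error alone, as no molecular identifiers marked PCR copies. A two-sided permutation of 2 against 2 libraries cannot go below a p of 0.333, so none was used. The procedure was tested on simulated counts.

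The genes, lists and tests were chosen with earlier results of these data known. All 43 genes are named. Of each of the 5 other lists, up to 2 called rises and 2 called falls with the largest change and a mean normalized count of at least 100 are named, with SREBF1, SREBF2, INSIG1, PPARA and PPARG whatever their values. Alternatives were DESeq2 (version 1.42.0), other scaling factors and filters, glmTreat, no fold criterion and each library left out in turn. The labels name LN95 for all libraries, while the series text names LNCaP for the knockout. For 1 cell type marker the result is not reported here.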

Additional observations from a re-analysis of the deposited data

Results flagged for a closer look

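Reads that did not align made up 8.05% and 7.71% of entries in the LN95(KO) libraries and 3.85% and 3.96% in the LNCaP95 libraries. This was noted because it lies among the htseq summary entries, which no comparison uses, and is above the level of the control libraries in both LN95(KO) libraries. These reads belong to no gene of the list, and their part in its changes was not tested.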

How the results depend on the processing

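No paired analysis was possible because replicates 1 and 2 are all LNCaP95 and replicates 3 and 4 all LN95(KO). The counts under other scalings of all genes past the adjusted p, and of the other pathway genes and their named members, were chosen after seeing the data.

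The 9 calls among the listed genes were all kept with DESeq2, RLE factors, library totals, upper-quartile factors and no filter, and each time 1 library was left out (9 to 10 calls, ACSL4 being added without LNCaP95 replicate 2). A filter of 10 CPM left 7, since ACSL6 and AMACR were not tested, and glmTreat left 7, without ACSS2 and AMACR. Without a fold criterion the count was 33. Over all genes 2811 calls became 1139 with the 10 CPM filter (633 higher, 506 lower), 1687 with glmTreat and 9349 without a fold criterion, and 2539 to 2777 with 1 library left out. The 19 calls among other pathway genes became 11, 12 and 62 under the same settings, and 14 to 21 with 1 library left out. The first of these settings tests fewer genes, the second is stricter and the third looser by construction.

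The median of synthesis and desaturation was 0.78 under library totals, a setting that moved the median of all genes from -0.01 to 0.05, and 0.68 to 0.78 with 1 library left out. The difference from oxidation kept its sign, from 0.53 to 0.67. HADHB reversed, to -0.02 under upper-quartile factors and -0.03 at the lowest and 0.07 at the highest with 1 library left out, and so did PPARG, to -0.03 under upper-quartile factors, to a value just below 0 (-0.00) with no filter, and to -0.22 at the lowest and 0.21 at the highest with 1 library left out. Neither passed the test, and the cause was not tested. Of 365 values of single genes, 329 kept direction and side of the threshold 33 lost the adjusted p, 1 gained it (ACAA2) and 2 reversed. The losses concerned 8 of 33 genes, namely ACADS, ACADVL, ACOX3, CPT2, ECI1, ELOVL6, FADS3 and HADHA. Depth limits ACSL5, ACSL6, AMACR and the 6 genes below the filter.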

Other observations

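Outside the genes named above, the called members of the activation and oxidation lists were ACSM1, ACSBG1, ACOX2 and EHHADH, all with low counts. They are named after their values were seen. ACSBG1, of the activation list, had 2 and 3 reads in the LNCaP95 libraries, against 10 and 14 reads in LN95(KO). Its log2 fold change was 2.24 (SE 0.60, edgeR adjusted p 0.00389), and DESeq2 did not call it. Exons of other genes cover 32.0% of the exon bases of ACSBG1. ACSM1, a medium-chain synthetase, had 5 and 1 reads in the LNCaP95 libraries, against 50 and 37 reads in LN95(KO) (log2 fold change 3.84, SE 0.47, edgeR adjusted p 1.76e-06), which was 5.30 without LNCaP95 replicate 1 and 3.13 without LNCaP95 replicate 2. ACOX2, a peroxisomal oxidase of branched chains and bile acid precursors, had 7 reads in both LNCaP95 libraries, against 57 and 56 reads in LN95(KO) (log2 fold change 3.02, SE 0.32, edgeR adjusted p 2.7e-07). EHHADH, the bifunctional enzyme of peroxisomal oxidation, had 50 and 46 reads in the LNCaP95 libraries, against 26 and 15 reads in LN95(KO) (log2 fold change -1.19, SE 0.28, edgeR adjusted p 0.00168), which was -1.65 without LN95(KO) replicate 3 and -0.82, no longer called, without LN95(KO) replicate 4. Peroxisomal genes were thus called in both directions.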
